A study of Homo sapiens with 6 samples.

Results

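The genes described are 10 direct targets of the transcription factor p53, namely MDM2, FAS, SESN1, ZMAT3, TP53INP1, RRM2B, FDXR, TP53I3, PHLDA3 and BTG2. They were taken by gene name from a fixed list that leaves out CDKN1A and the BCL2 family, and each name matched 1 entry, so that 10 of the 38648 listed genes and gene copies were members. GADD45A and further p53 targets are not on this list either, and are described further on. The libraries were bulk RNA-seq of HK-2 cells, an immortalized human proximal tubular line, that had received a lentivirus and then 1 X-ray dose of 8 Gy. IR+NC-LV cells (n = 3) carried the NC (negative control) lentivirus and IR+PR-LV cells (n = 3) a lentivirus that delivers PRDM16, a transcription regulator, and both were collected on day 7. Every library came from irradiated cells that had been given a lentivirus and, according to the methods, puromycin to remove cells without it. The levels therefore describe the irradiated state, and no comparison with cells that were not irradiated was made. The question was whether the transcripts of these known p53 targets differed between irradiated cells with and without added PRDM16.

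In unstressed cells p53 is kept scarce by MDM2, a ubiquitin ligase that marks it for breakdown. DNA damage, as from X-rays, activates the kinases ATM and ATR, p53 escapes MDM2 and binds DNA as a tetramer, and genes for cell cycle arrest, repair, redox control and cell death are transcribed, together with MDM2 itself, which closes a feedback loop. HK-2 cells were immortalized with the E6 and E7 genes of a human papillomavirus, and E6 directs p53 to breakdown, a property that both groups share. How far p53 set the levels of these genes in these cells was not tested. In the kidney, p53 in tubular cells is known for its part in cell cycle arrest and cell death after injury.

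A p53 tetramer binds a site of 20 bases, made of 2 decamers that each hold 3 purines, a C, 2 bases that are A or T, a G and 3 pyrimidines. Promoter windows of 300 bases (250 before and 50 after each annotated start site) from RefSeq on GRCh38.p14 were at hand for 7 of the 10 genes, and were searched for 2 adjacent decamers in which the C and G of each decamer matched. The consensus reads the same on both strands, so that 1 pass covers both. FAS, MDM2, SESN1 and FDXR had a match with at most 3 mismatches, which 1.37% of the 27305 genes with a window had. A gene counted if any of its windows had a match. The 7 genes had 16 windows and the 27305 genes 35116, so that the members had more windows per gene. Of the 35116 windows, 1.12% had such a match. The matches are shown because they are the stretches most like a p53 site beside these genes, with the bases that fit the consensus in capitals.
MDM2, chr12:68808923-68808942, plus strand, intron, 2 mismatches: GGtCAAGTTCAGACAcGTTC
FAS, chr10:88991309-88991328, plus strand, intron, 2 mismatches: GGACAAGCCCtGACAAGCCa
SESN1, chr6:109009018-109009037, minus strand, intron, 3 mismatches: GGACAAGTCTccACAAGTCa
FDXR, chr17:74872996-74873015, minus strand, upstream of the gene, 3 mismatches: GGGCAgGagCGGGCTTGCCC

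The match in MDM2 began 94 bases before the start site of its internal promoter, which is known as the p53-responsive promoter of the gene. In the windows at its upstream start sites the best match with the C and G kept had 8 mismatches. The match in SESN1 likewise lay at 1 of 3 annotated start sites, 49 bases before it. When the C and G were no longer required, a further match with 3 mismatches appeared in the MDM2 window at chr12:68808961-68808980, plus strand. With this looser search 5.2% of the 35116 windows had a match, and 0.313% had more than 1. The 250 bases before the internal MDM2 start (chr12:68808767-68809016, plus strand) and before the SESN1 start (chr6:109008989-109009238, minus strand), both intronic, are printed to show how the sites sit in their promoters, with the matches in capitals.
MDM2 internal promoter: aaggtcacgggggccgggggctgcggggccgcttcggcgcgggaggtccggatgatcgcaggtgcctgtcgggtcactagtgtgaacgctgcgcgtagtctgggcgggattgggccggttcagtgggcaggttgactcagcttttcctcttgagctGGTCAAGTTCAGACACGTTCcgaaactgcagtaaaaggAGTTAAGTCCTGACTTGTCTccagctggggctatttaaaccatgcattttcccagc
SESN1 internal promoter: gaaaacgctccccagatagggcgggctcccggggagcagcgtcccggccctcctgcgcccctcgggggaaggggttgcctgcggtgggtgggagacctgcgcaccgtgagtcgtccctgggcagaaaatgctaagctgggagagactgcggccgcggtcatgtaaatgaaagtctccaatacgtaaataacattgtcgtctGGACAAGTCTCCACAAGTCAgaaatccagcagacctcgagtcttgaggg

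In ZMAT3 the best match had 4 mismatches (chr3:179071873-179071892, minus strand, intron), and 4.05% of windows had one with at most 4. In the windows of BTG2 and TP53I3 the best match that kept the C and G of each decamer had 9 and 10 mismatches. Few positions meet that requirement, so a stretch without it may have fewer mismatches. A match describes letters and was not read as a bound site. Decamers with bases between them, and sites outside these windows, were not searched. Among the other p53 targets examined further on, 4 of the 23 searched had a match with at most 3 mismatches, namely AEN, DDB2, GDF15 and RPS27L. Among the p53 regulators searched, 0 of 9 had one.

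The total count ranged from 13407074 to 28540041 per library. PRDM16, the delivered gene, had counts of 2, 0 and 1 in IR+NC-LV and 14, 10 and 8 in IR+PR-LV, and the groups did not overlap (2-sided exact permutation test on CPM, read counts scaled to the library size after normalization, p = 0.1, the smallest that 3 libraries against 3 allow). Even where it was delivered its level was low, averaging 0.542 CPM against 0.0637 for the control virus (log2 ratio 3.09). A count of 3 equals between 0.105 and 0.224 CPM, depending on the library. The size of the increase therefore rests on few reads. Of 6 epithelial markers 5 had a mean over 1 TPM, among them KRT8, KRT18 and PAX8 at 833.8, 631.7 and 137.5 TPM, and CDH1, the epithelial cadherin, was at 0.42 TPM (a transcript level scaled by gene length and library, mean of the 6 libraries). In contrast, 7 of 10 proximal tubule markers had a mean under 1 TPM, among them LRP2 (0.00468 TPM), HNF4A (0.0130 TPM) and CUBN (0.280 TPM). The remaining markers of that list were above it, with GGT1 at 69.9 TPM, AQP1 at 2.92 TPM and MME at 2.78 TPM. The markers of the labelled cell type were thus mixed, and most of them were low. In bulk libraries, fewer cells that express a gene and less RNA per cell cannot be told apart.

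All 10 genes were counted in every library, and per gene length they formed a higher set of 4 and a lower set of 6. Averaged over the 6 libraries, RRM2B had 36.7 TPM, TP53INP1 35.4 TPM, MDM2 33.3 TPM and PHLDA3 32.3 TPM. Lower levels were found for ZMAT3 with 11.6 TPM, FAS with 11.4 TPM, TP53I3 with 10.7 TPM, SESN1 with 9.83 TPM, BTG2 with 8.57 TPM and FDXR with 8.02 TPM. The lowest PHLDA3 library (27.8 TPM) lay above the highest ZMAT3 library (15.2 TPM), and that was the only gap between neighbours in this order, since the ranges of every other neighbouring pair overlapped. The gene length used here counts all listed exon bases, from 2418 for FDXR to 12793 for MDM2, and the 2 sets depend on it. In CPM, which is not scaled by length, the IR+NC-LV means of ZMAT3 and FAS (37.06 and 35.19) exceeded that of PHLDA3 (29.15). The 10 levels exceeded those of between 74.9% and 87.5% of the listed genes and gene copies.

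**Figure D1:**
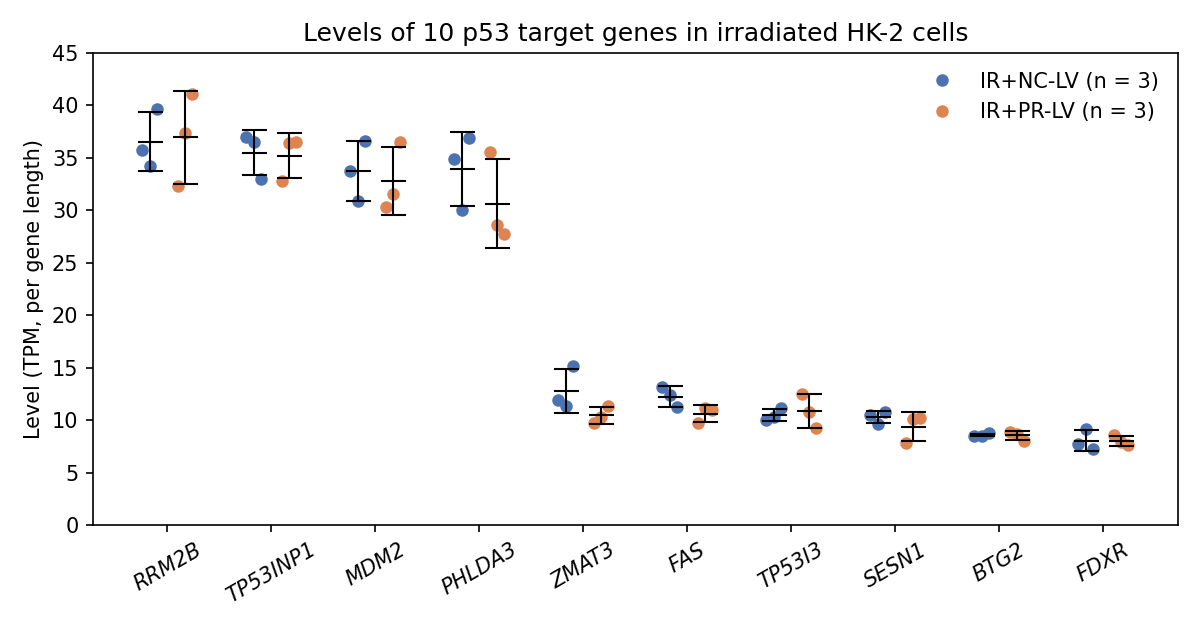
Level of each p53 target gene in TPM (vertical axis, linear from 0), ordered by the mean of the 6 libraries. Points are libraries, ticks the group means and bars the SD (n = 3 each). RRM2B, TP53INP1, MDM2 and PHLDA3 lie between 27.8 and 41.1 TPM and the other 6 genes at or below 15.2 TPM.

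Of the 10 genes, 0 passed the threshold when IR+PR-LV was set against IR+NC-LV, an adjusted p-value under 0.05 in edgeR's quasi-likelihood test over 15340 genes, where 10 genes in all (0.0652%) passed. At an unadjusted p-value under 0.05 there was 1 member, ZMAT3, against 10.5% of all genes tested, and DESeq2 likewise gave 1 member at that level and 0 past the threshold. In IR+PR-LV 6 members had a higher and 4 a lower estimate, and the median log2 fold change of the 10 was 0.01, beside 0.0044 over all genes tested. Without IR+NC-LV replicate 3 the median of the 10 was -0.07. The 95% intervals of the 10 log2 fold changes all lay between -0.47 and 0.40, so that a difference of 1 on the log2 scale was outside each of them. Smaller differences that lie within a gene's interval were not excluded at this number of libraries. P-values here measure the spread between the 3 numbered libraries of a group, which may be technical, since nothing in the labels says that they came from separate cultures.

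The groups in CPM did not overlap for ZMAT3 alone among the members, with IR+PR-LV below, as were 9.54% of all genes tested. In the other direction this held for 0 members and for 7.46% of all genes tested. A count of 1 in 10 is close to the share in the whole table.

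**Figure D2:**
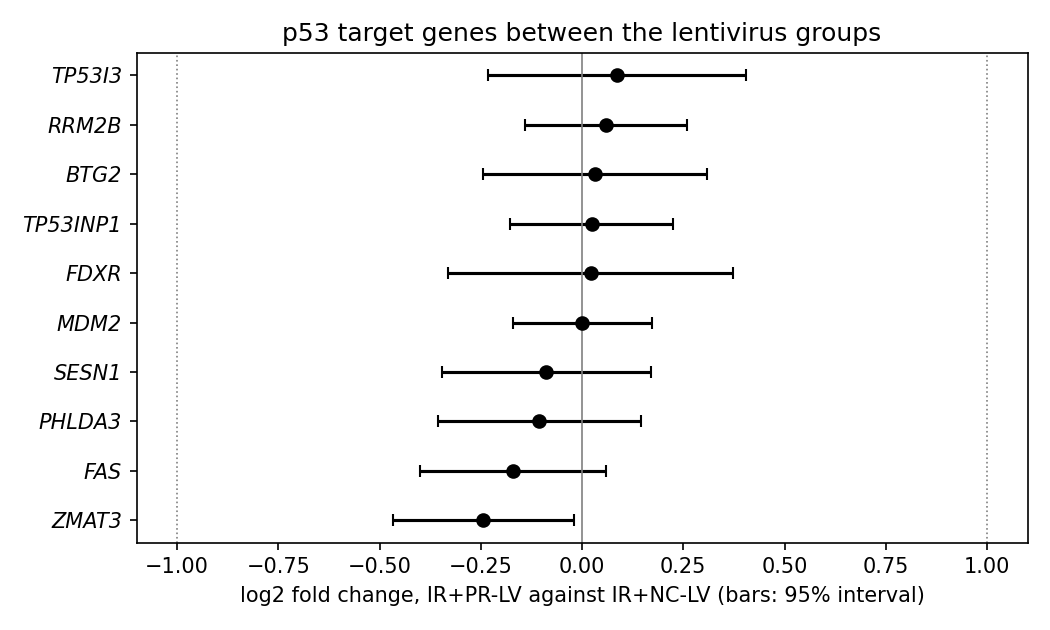
The log2 fold change of each gene, IR+PR-LV against IR+NC-LV (horizontal axis), from edgeR, with bars for the 95% interval and dotted lines at -1 and 1. Estimates run from -0.24 for ZMAT3 to 0.09 for TP53I3, and every interval except that of ZMAT3 includes 0.

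MDM2 and TP53INP1 act on p53 itself. MDM2 (GRCh38, chromosome 12, 68808149 to 68850686, plus strand), whose internal promoter is printed above, had 132.9, 123.6 and 134.4 CPM in IR+NC-LV replicates 1 to 3, against 120.8, 126.7 and 143.3 CPM in IR+PR-LV. The groups overlapped, and IR+PR-LV held both the lowest and the highest library. The log2 fold change was 5.76e-05 (standard error 0.08, 95% interval -0.17 to 0.17, edgeR adjusted p = 0.9998). TP53INP1 (chromosome 8, 94925972 to 94949378, minus strand), a nuclear protein that promotes p53 phosphorylation and also takes part in autophagy, had 65.2, 65.5 and 54.3 CPM in the IR+NC-LV libraries against 58.4, 65.5 and 64.1 CPM with IR+PR-LV. Replicate 3 of IR+NC-LV was the lowest library, and the groups overlapped. Its log2 fold change was 0.02 (standard error 0.09, 95% interval -0.18 to 0.22, edgeR adjusted p = 0.942).

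ZMAT3, BTG2 and PHLDA3 are known to restrain growth. ZMAT3 (chromosome 3, 179017223 to 179072513, minus strand) encodes a zinc finger protein that binds RNA and regulates splicing and RNA stability. It had 35.2, 34.1 and 42.0 CPM in the IR+NC-LV libraries against 29.2, 31.0 and 33.5 CPM with IR+PR-LV. Each IR+PR-LV library lay below each IR+NC-LV library, the closest pair being 33.5 and 34.1 CPM. The log2 fold change was -0.24 (standard error 0.10, 95% interval -0.47 to -0.02), with an edgeR adjusted p of 0.437, so that it did not pass over the whole table. In the deposited TPM values, where the lowest IR+NC-LV library had 11.30 and the highest IR+PR-LV library 11.34, the groups overlapped. Without IR+NC-LV replicate 3, the highest library, the log2 fold change was -0.15.

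BTG2 (chromosome 1, 203305519 to 203309602, plus strand), an antiproliferative protein that speeds mRNA deadenylation, had 7.15, 7.27 and 6.84 CPM in the IR+NC-LV libraries against 7.56, 7.44 and 6.74 CPM with IR+PR-LV. It varied least of the 10 genes, with a highest library 1.12 times the lowest, and the groups overlapped. Its log2 fold change was 0.03 (standard error 0.12, 95% interval -0.24 to 0.31, edgeR adjusted p = 0.945). PHLDA3 (chromosome 1, 201464278 to 201469188, minus strand) has a lipid-binding domain with which it keeps the kinase AKT from the membrane. Its levels were 30.5, 26.8 and 30.2 CPM in the IR+NC-LV libraries against 31.5, 25.6 and 24.2 CPM with IR+PR-LV. Both the highest and the lowest library belonged to IR+PR-LV. For PHLDA3 the estimate was -0.11 on the log2 scale (standard error 0.11, 95% interval -0.36 to 0.15, edgeR adjusted p = 0.781).

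FAS (chromosome 10, 88968429 to 89017059, plus strand), whose intronic match is printed above, encodes the death receptor for FAS ligand. It had 38.2, 36.9 and 30.5 CPM in the IR+NC-LV libraries against 28.8, 33.2 and 31.9 CPM with IR+PR-LV. Replicates 1 and 2 of IR+NC-LV lay above all others and replicate 3 lay among the IR+PR-LV libraries, so the groups overlapped. In the deposited TPM values they did not, since the lowest IR+NC-LV library had 11.22 TPM and the highest IR+PR-LV library 11.16 TPM, and whether FAS or ZMAT3 was the gene with separate groups depended on the scale. Its estimate was -0.17 on the log2 scale (standard error 0.10, 95% interval -0.40 to 0.06, edgeR adjusted p = 0.601), the lowest estimate after ZMAT3. Of its exon bases, 4.2% overlap exons of other genes, ACTA2 and the antisense gene FAS-AS1 among them, and without knowledge of the strand setting the reads there cannot be told apart. Smaller shares of TP53I3 (3.09%, FAM228B), TP53INP1 (1.5%, NDUFAF6) and MDM2 (1.07%, the carboxypeptidase gene CPM) overlap in the same way.

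RRM2B (chromosome 8, 102204501 to 102238961, minus strand) supplies deoxynucleotides for repair as the p53-inducible small subunit of ribonucleotide reductase. It had 55.4, 54.0 and 57.4 CPM in the IR+NC-LV libraries against 50.8, 59.1 and 63.6 CPM with IR+PR-LV. The control libraries lay within the range of the IR+PR-LV libraries, and the estimate was 0.06 on the log2 scale (standard error 0.09, 95% interval -0.14 to 0.26, edgeR adjusted p = 0.848).

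SESN1, FDXR and TP53I3 serve redox and nutrient control. SESN1 (chromosome 6, 108984309 to 109094846, minus strand) encodes a sestrin, which lowers mTORC1 activity. It had 19.6, 18.4 and 18.8 CPM in the IR+NC-LV libraries against 14.8, 19.4 and 19.02 CPM with IR+PR-LV. Replicate 1 of IR+PR-LV stood below the other 5 libraries. Its estimate was -0.09 on the log2 scale (standard error 0.11, 95% interval -0.35 to 0.17, edgeR adjusted p = 0.823), and 0.02 without that library.

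FDXR (chromosome 17, 74862497 to 74872994, minus strand), the mitochondrial reductase that passes electrons from NADPH to ferredoxin, had 5.72, 6.93 and 5.04 CPM in the IR+NC-LV libraries against 6.43, 5.97 and 5.65 CPM with IR+PR-LV. These came from 70 to 167 counts per library, and IR+NC-LV held both extremes. Its log2 fold change was 0.02 (standard error 0.16, 95% interval -0.33 to 0.37, edgeR adjusted p = 0.974). TP53I3 (chromosome 2, 24077428 to 24085767, minus strand), a quinone oxidoreductase linked to reactive oxygen species, had 7.99, 8.36 and 8.28 CPM in the IR+NC-LV libraries against 10.1, 8.76 and 7.34 CPM with IR+PR-LV. The IR+NC-LV libraries lay within the IR+PR-LV range, and the log2 fold change was 0.09 (standard error 0.14, 95% interval -0.23 to 0.40, edgeR adjusted p = 0.862). Without IR+PR-LV replicate 1 it was -0.02.

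The 10 genes did not vary as a block over the libraries. Of the 45 pairs of genes, the Pearson correlation of log2 CPM over the 6 libraries was positive for 23 and negative for 22. The closest pairs were MDM2 with RRM2B (r = 0.845) and TP53I3 with BTG2 (r = 0.845), and the most opposed was MDM2 with BTG2 (r = -0.92). All of these rest on 6 libraries that differ in depth and in group, and are given as descriptions. IR+PR-LV replicate 1 had the lowest level of 5 genes (MDM2, FAS, SESN1, ZMAT3 and RRM2B) and the highest of 3 (TP53I3, PHLDA3 and BTG2).

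Gene length divided the genes in a similar manner, a division chosen after the values were seen. The 4 genes with under 3000 exon bases (FDXR, TP53I3, PHLDA3 and BTG2) correlated positively in 5 of 6 pairs, the 6 genes with over 5000 in 14 of 15, and pairs across the classes were negative in 20 of 24. The mean of the short genes minus that of the long genes, on the log2 scale and relative to each gene's mean, was -0.07, 0.02 and -0.07 in IR+NC-LV and 0.33, -0.01 and -0.20 in IR+PR-LV. For all genes with a mean of at least 5 CPM, medians were used in place of means. The median of 3121 short genes minus that of 4951 long genes was 0.03, 0.05 and -0.11 in IR+NC-LV and 0.04, 0.04 and -0.04 in IR+PR-LV. The value of 0.33 in IR+PR-LV replicate 1, a difference of means over few genes, thus stood beside a difference of medians of 0.04 for all genes. These are not like measures. The part of length in these values was not tested.

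**Figure D3:**
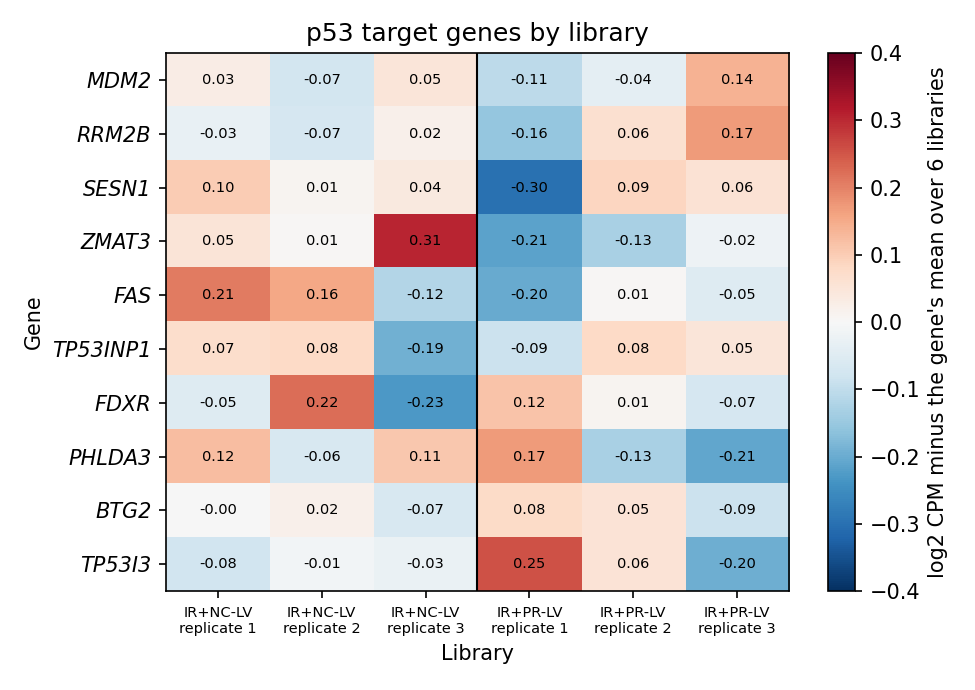
Each gene's log2 CPM minus its mean over the 6 libraries (colour and printed value), with libraries in columns grouped as IR+NC-LV and IR+PR-LV. In IR+PR-LV replicate 1 SESN1 is at -0.30 and TP53I3 at 0.25, and in IR+NC-LV replicate 3 ZMAT3 is at 0.31, its highest value.

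The SD of log2 CPM within groups ran from 0.07 for BTG2 to 0.17 for FDXR, and 8 of the 10 genes lay above the median of 0.11 over 11120 genes with a mean of at least 5 CPM. Between the highest and the lowest library the fold was 1.44 for ZMAT3, 1.38 for FDXR and 1.37 for TP53I3, and at most 1.33 for the other 7. Among 9810 genes with a mean of at least 10 CPM, those most like the mean profile of the 10 genes over the 6 libraries were ARMH3, TMEM258, FAM83D, EMP3 and MFSD11, with Pearson r between 0.983 and 0.996. High values of r are common when so many genes are compared over 6 libraries, and none of these genes passed the threshold (edgeR adjusted p between 0.383 and 0.722).

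Other direct p53 targets were described from a list of 28 genes, of which 27 could be tested. The list was drawn up with earlier results of these data known. None passed the threshold, and 4 were under 0.05 before adjustment in edgeR, each with a negative estimate. Of all 15340 genes tested, 0.0652% passed the threshold. Before adjustment 10.5% were under 0.05 in either direction, and 916 genes were so with a negative estimate. The median log2 fold change of the 27 was -0.06, with 9 higher and 18 lower, where 48.9% of all genes tested were lower. Groups that did not overlap were found for 5 of the 27, all lower in IR+PR-LV, beside the 9.54% of all genes tested. Of these, DDB2, a subunit of the complex that recognizes ultraviolet damage, had 16.0, 19.9 and 18.9 CPM in the IR+NC-LV libraries against 14.8, 15.9 and 14.2 CPM with IR+PR-LV (log2 fold change -0.29, edgeR adjusted p = 0.401). PPM1D, the phosphatase that dampens the damage response and p53, had 32.3, 30.7 and 37.4 CPM against 26.5, 28.75 and 30 CPM (-0.23, edgeR adjusted p = 0.443). SUSD6 had 26.5, 26.1 and 26.1 CPM against 23.5, 22.03 and 21.7 CPM (-0.23, edgeR adjusted p = 0.382).

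The remaining genes of these 5, the exonuclease gene AEN (-0.18) and the TRAIL receptor gene TNFRSF10B (-0.12), and those of the next sentences were named after their values were seen. The lowest estimate of the list, -0.71 for SPATA18, which takes part in mitochondrial quality control, came from means of 1.09 and 0.642 CPM with overlapping groups. The highest was 0.13 for CCNG1. SESN2, the other sestrin of the list, was counted almost only at a copy of its entry, with 5.19, 9.12 and 3.89 CPM in the IR+NC-LV libraries against 2.98, 4.83 and 10.9 CPM with IR+PR-LV, so its value is uncertain. EDA2R was too low to test.

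The regulators of p53 were centred near 0. Of 10 genes, 5 had higher and 5 lower estimates, with a median of 0.00097 on the log2 scale, 0 past the threshold and 0 with an unadjusted p-value under 0.05 (edgeR). The ubiquitin ligase COP1 was the 1 gene of these 10 whose groups in CPM did not overlap, beside the 7.46% of all genes tested that were separate in that direction, with 70.2, 68.7 and 66.2 CPM in the IR+NC-LV libraries against 73.0, 71.2 and 74.1 CPM with IR+PR-LV, a difference of 0.09 on the log2 scale (edgeR adjusted p = 0.651). In TPM the COP1 groups overlapped, since the lowest IR+PR-LV library had 24.4 and the highest IR+NC-LV library 24.84. MDM4, the relative of MDM2 that masks the p53 activation domain and was named for that kinship, had 57.4 ± 0.775 CPM without and 53.4 ± 7.06 CPM with added PRDM16 (SD, 3 libraries each), which is -0.11 on the log2 scale.

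Among the p53 targets that the list of 10 leaves out, CDKN1A, the cell cycle inhibitor p21, had 73.6, 76.4 and 72.3 CPM in the IR+NC-LV libraries against 70.9, 65.5 and 61.5 CPM with IR+PR-LV (log2 fold change -0.17, 95% interval -0.33 to -0.01, edgeR adjusted p = 0.453). Its groups did not overlap, which in the lower direction held for 9.54% of all genes tested. Its unadjusted p-value in edgeR was 0.0424, where 10.5% of all genes tested were under 0.05, and it did not pass over the whole table. Among the targets kept apart, the groups of GADD45A were also separate and lower in IR+PR-LV. Of CDKN1A, GADD45A, BAX, BBC3 and PMAIP1, only GADD45A passed the adjusted threshold. It fell from 233.6, 201.6 and 283.2 CPM to 119.3, 119.5 and 115.5 CPM (log2 fold change -1.02, edgeR adjusted p = 0.0173), whereas BAX, BBC3 and PMAIP1 had log2 fold changes of -0.12, -0.22 and 0.15 that did not pass.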

How the data were processed

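Bulk RNA-seq libraries of HK-2 cells (6) were grouped and numbered by their titles. According to the methods, mRNA was captured with oligo(dT), sequenced from both ends, and reads of low quality or with adapters were dropped. The submitters' processing notes name CASAVA, featureCounts 2.0.1, DESeq2 1.16.1 and hg38, while the aligner, annotation release and strand setting are not given in the sources used here. The authors deposited raw read counts per gene, without normalization. The deposited TPM values, which are per gene length, gave the levels between genes, and the deposited FPKM values entered no result.

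Counts were compared with edgeR 4.0.16 in R 4.3.3 (filterByExpr with min.count 10 and min.total.count 15, TMM factors between 0.981 and 1.04, glmQLFit and glmQLFTest without covariates, Benjamini-Hochberg adjustment over 15340 genes, threshold 0.05). The biological coefficient of variation was 0.106. Log2 CPM used a prior count of 2. A count of 0 allows up to 0.224 CPM (3 counts) in the shallowest library, for counting error only. The procedure was tested on simulated data, but no outcome of that test is given here, so it lends no weight to the results. Members and lists were chosen with earlier results of these data known. All 10 members were named, and of the other lists the 3 lowest and 3 highest estimates whose groups do not overlap and whose mean is 1 CPM or more, unless stated. The 5 genes most like the members in profile came from genes with a mean of at least 10 CPM. Alternatives were DESeq2 1.42.0, normalization by RLE or upper quartile, other filters, the replicate number as a block, counts summed over gene copies, a threshold of 0.01, each library left out, and, chosen after seeing the data, removal of each library's trend with gene length.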

Additional observations from a re-analysis of the deposited data

How the results depend on the processing

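None of the 10 p53 target genes passed the threshold in any alternative run, and the lowest adjusted p among them was 0.255 (PHLDA3 without IR+PR-LV replicate 1), and 0.558 in DESeq2. FAS, ZMAT3, PHLDA3 and BTG2 kept their sign in all 14 alternatives, but with 1 library left out PHLDA3 ranged from -0.221 (without IR+PR-LV replicate 1) to -0.0331 (without IR+PR-LV replicate 3), BTG2 from 0.00317 to 0.0804 (without the same libraries), FAS from -0.257 to -0.112 and ZMAT3 from -0.306 to -0.146. The log2 fold change of MDM2, near 0, turned with upper-quartile normalization (-0.0111), at least 10 counts in every library (-0.00105) and the replicate block (-0.00284). With 1 library left out, values ranged from -0.073 to 0.0514 for MDM2, -0.16 to 0.0232 for SESN1, -0.05585 to 0.0717 for TP53INP1, -0.0125 to 0.144 for RRM2B, -0.075 to 0.156 for FDXR and -0.0223 to 0.194 for TP53I3, so that each sign turned at least once. The medians then ranged from -0.0654 to 0.0016 for the 10 genes and from -0.103 to -0.0382 for the other p53 targets, both lowest without IR+NC-LV replicate 3, and that of the regulators was 0.0327 with the length trend removed. The log2 ratio of PRDM16 counts ranged from 2.5 to 3.91.

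The number of genes changed over the whole table, 10, depended on the processing. It was 342 with at least 1 count over the libraries, 166 with DESeq2, 3 with the replicate block and 1 at an adjusted p under 0.01, and between 1 (without IR+NC-LV replicate 1, and also without IR+PR-LV replicate 3) and 28 (without IR+NC-LV replicate 2) with 1 library left out. The cause was not tested. Whether the replicate numbers pair the samples could not be decided from 3 libraries per group. Correlations of deviations were -0.00884, 0.0514 and 0.0706, with 2 of 3 numbers matching best. The block changed no call among the 10 genes.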
